A study of Mus musculus with 4 samples.

Results

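Kcnd2, Ctnna2, Tenm3, Zfpm2, Dync1i1, Magi1, Dlg2 and Cdh10 were followed through single cells of mouse ascites as 8 of the 32285 gene identifiers counted. They were selected on their level, chosen by how far they led a cluster marked by Wt1 and Krt19 over the other cells of these same 4 libraries, so their high level in that cluster is what selected them and is given here as a description. In the clustering used here 7 of them stood among the 10 leading genes of the cluster, and Cdh10 did not. They were also grouped as long genes of neural type, so a long span is part of the grouping.

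The cells came from ascites of female FVB mice, collected 6 weeks after injection of Br-Luc tumor cells per the labels (the study's own text gives an earlier day), which carry p53-/-, brca1-/-, myc and Akt-myr. Both groups carried the same tumor cells, and both received repeated doses of 10 µg of siRNA with locked nucleic acid (LNA) ends. The doses were complexed with jetPEI and given into the peritoneal cavity. One group received the control siRNA (siCont, replicates 1 and 2) and the other an siRNA against Fxr1 (siFXR1-LNA, replicates 1 and 2). Each library was made from the pooled ascites of 3 mice, so differences between the mice of a pool are not seen and n is 2 libraries per group. The p-values measure the spread between these 4 pools.

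Kcnd2 encodes a Kv4 channel of the A-type potassium current, and Ctnna2 encodes the neuronal alpha-catenin that ties cadherins to actin. Tenm3 encodes a teneurin, a large adhesion protein of synaptic partners, and Cdh10 a type II cadherin. Magi1 and Dlg2 encode membrane-associated scaffolds of cell junctions and of synapses. Zfpm2 encodes FOG2, a cofactor of GATA factors in the gonad, the heart and the coelomic lining, and Dync1i1 an intermediate chain of cytoplasmic dynein. Most of these genes are best known from brain, and all have long introns. Wt1 and the keratins are known from tumor cells of this kind and also from the mesothelium that lines the peritoneal cavity.

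The files held 133849 barcodes, of which 132644 had 100 to 4800 genes and at most 15% mitochondrial UMIs (unique molecular identifiers, each counting 1 captured molecule). Total UMIs per library ranged from 78179267 to 113606837. Hemoglobin took 29.5% and 41.1% of UMIs in the siCont libraries and 10.0% and 9.11% in the libraries labelled siFXR1-LNA. Between 2641 and 5945 barcodes of a library also occurred in another library, but at most 4 cells per library of the Wt1 Krt19 cluster shared their barcode. Fxr1, the target, was not lower in the libraries labelled siFXR1-LNA. Over all cells it stood at 55.8 and 33.9 CPM (the share of a gene in all UMIs, where 10000 CPM are 1%) in siCont replicates 1 and 2 and at 104 and 71.8 CPM in siFXR1-LNA replicates 1 and 2. Within the Wt1 Krt19 cluster it stood at 109, 125, 140 and 139 CPM in the same order (log2 difference 0.28, SE 0.23, edgeR adjusted p = 0.51), so the labels of the groups were not checked by their target, and directions between groups below refer to the libraries as labelled.

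The Wt1 Krt19 cluster held 2865 cells, with 847 and 122 in siCont replicates 1 and 2 and 1478 and 418 in siFXR1-LNA replicates 1 and 2. Of its 9 listed markers, Wt1, Krt19, Krt8, Msln, Muc16 and Lrrn4 were raised at least 2-fold over the mean of the other clusters. Wt1 stood at 937, 1062, 1124 and 737 CPM. Krt19 stood at 323, 309, 166 and 290 CPM, and in siFXR1-LNA replicate 1 it was lower in the cluster than in all other cells. These markers do not tell tumor cells from mesothelial cells, and no vector-borne tumor gene was analysed here. The cells are therefore called by their markers. Ptprc, the pan-leukocyte gene, had a UMI in 17.9%, 9.02%, 12.0% and 12.0% of them. Another cluster of 46576 cells, led by Sprr1a and Ccn2 and holding 57 and 53 siCont cells against 41038 and 5428 of siFXR1-LNA, had 4 of the markers raised but not Wt1, and it stayed unnamed.

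The 8 genes were compared by sequence and position first, because they were grouped as long genes. In GENCODE vM21 (GRCm38), 4 of them lie on chromosome 6, which holds 4.94% of the genes expressed in the cluster. Kcnd2 spans 6:21215503-21729805 on the plus strand, Ctnna2 spans 6:76881637-77979699 on the minus strand, Dync1i1 spans 6:5725639-6028039 on the plus strand and Magi1 spans 6:93675455-94283917 on the minus strand. Tenm3 lies at 8:48227682-48843951 on the minus strand and Dlg2 at 7:90476672-92449247 on the plus strand. Zfpm2 lies at 15:40655035-41104592 and Cdh10 at 15:18818947-19014236, both on the plus strand. The spans run from 195 kb for Cdh10 to 1973 kb for Dlg2, against a median of 26.05 kb for genes expressed in the cluster. Exons take 0.633% of the span in Ctnna2, the lowest of the 8, and 5.15% in Cdh10, the highest.

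RefSeq (GRCm38.p6) gave 10 promoter windows for 7 of the genes, each of 250 bases before to 50 bases after a start. CpG dinucleotides numbered 38 in the window of Ctnna2 and 26 in that of Kcnd2, against a median of 7 over all 32851 windows of the genome. The windows of Dlg2 held 1 to 3 and that of Cdh10 held 2. The 30 bases just before the start are shown for Kcnd2, Ctnna2 and Cdh10, with each CG in capitals. These short stretches hold 1, 3 and 1 CG, so they do not show the contrast of the full windows. For Magi1 a stretch is shown that holds GTGGGAG, part of the sequence known to be bound by WT1, in capitals.
Kcnd2, chr6:21215316-21215345, plus strand: ttatttatgctcccCGggagcctgggatct
Ctnna2, chr6:77979668-77979697, minus strand: gCGcactggccacctcccctagCGgCGatc
Cdh10, chr15:18820299-18820328, plus strand: tcttttaaaaCGtagttacaagagcttcac
Magi1, chr6:93913027-93913056, minus strand: ggctgggcaggGTGGGAGgagaagcaggga
The letters GTGGGAG were searched on both strands and occurred in 9.73% of all 32851 promoter windows. Magi1 was the only one of these genes with a match, in 1 of its 2 windows. The promoters thus range from CpG-rich to CpG-poor. The long span of these genes was part of their grouping, so it is not set against the promoter features as a result.

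In the Wt1 Krt19 cluster, 7 of the 8 genes were at least 29.3-fold above the other cells of the same library in every library. Kcnd2 stood at 6354 and 6558 CPM in siCont replicates 1 and 2 and at 2645 and 2287 CPM in siFXR1-LNA replicates 1 and 2, where its level in all other cells of the library was 50.5, 11.9, 41.2 and 20.03 CPM. Its fold over the other cells ran from 64.2 to 550. Ctnna2 was 38.3-fold to 448-fold over the other cells and Tenm3 62.0-fold to 400-fold. For Zfpm2 the fold was 36.8 to 282, for Dync1i1 32.5 to 317, for Magi1 48.3 to 291 and for Dlg2 29.3 to 184. The highest fold of each gene was in siCont replicate 2, the library with the fewest cells of the cluster, and the lowest was in siFXR1-LNA replicate 1. The cluster held 2.33%, 0.486%, 2.72% and 2.48% of the kept cells, so the level outside it was lowest where the cluster was smallest.

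Ordered by the mean over libraries of the log2 ratio of CPM + 1 between the cluster and the other cells, Kcnd2 was first of the 11176 annotated genes with at least 100 UMIs in the cluster, at 7.17. Tenm3 was at rank 2 with 6.74, Ctnna2 at rank 3 with 6.57, Zfpm2 at rank 5 with 6.42, Magi1 at rank 6 with 6.39, Dync1i1 at rank 9 with 6.17 and Dlg2 at rank 13 with 5.99. The SD of the log2 fold over the 4 libraries was 1.09 to 1.51 for these 7 genes, and most of this spread is shared by the genes of a library. Within libraries the log2 fold of Kcnd2 was the highest of the 7 in 4 of 4, at 6.97, 9.10, 6.00 and 6.84, above Tenm3 at 6.55, 8.64, 5.95 and 6.78. Ctnna2 was above Zfpm2 in 3 of 4 libraries and Zfpm2 above Magi1 in 2 of 4, so these neighbours changed places. Cdh10, with 55 UMIs in the cluster, would stand at rank 7157 with 0.52.

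**Figure D1:**
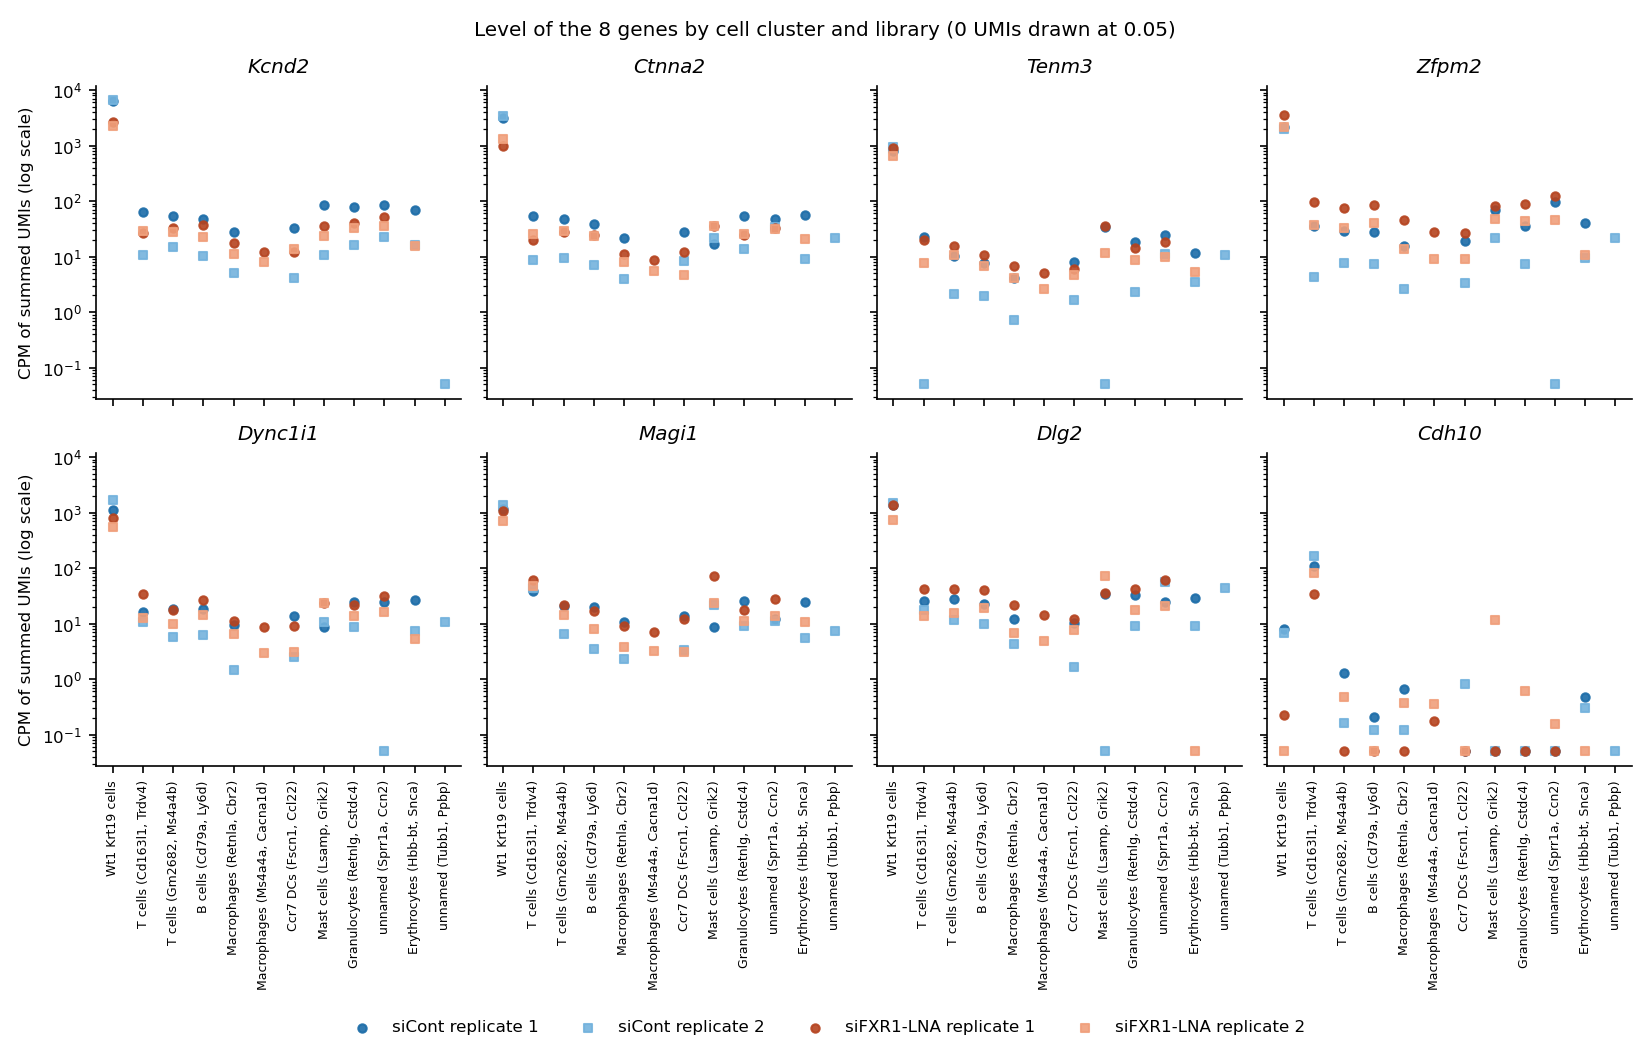
Level of each of the 8 genes (CPM, logarithmic axis, 0 UMIs drawn at 0.05) by cluster, with 1 point per library and the Wt1 Krt19 cells at the left of each panel. Kcnd2 lies between 2287 and 6558 CPM in Wt1 Krt19 cells, and Cdh10 reaches its highest level, 167 CPM, in T cells led by Cd163l1.

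The same 7 genes were seen in most cells of the cluster. A UMI of Zfpm2 was found in 92.6% to 98.4% of the cells of a library, and one of Dlg2 in 67.9% to 84.1%. Among B cells, which should lack these genes, a Kcnd2 UMI was found in 3.30% to 10.5% of cells, at a median depth of 2024 to 2718.5 UMIs per cell against 5235.5 to 8525.5 in the cluster. After thinning every cell to 1000 UMIs, which left out 2 to 17 cells of the cluster per library, Kcnd2 had a UMI in 82.6%, 78.8%, 68.7% and 61.8% of Wt1 Krt19 cells and in at most 4.84% of B cells. Zfpm2 after thinning was seen in 70.1% to 87.8% of Wt1 Krt19 cells and in at most 8.32% of B cells. The shares outside the cluster were low, and expression is not read from them. Kcnd2, Zfpm2, Tenm3, Dync1i1 and Dlg2 were each at 0 CPM in at least 1 other cluster of siCont replicate 2. Those clusters held 53 to 170 cells in that library and few UMIs, so a 0 there does not show a lower level. The part of free RNA in these shares was not tested.

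Co-detection was common. All 7 genes had a UMI in 57.1%, 50.8%, 48.6% and 39.7% of the Wt1 Krt19 cells of siCont replicates 1 and 2 and siFXR1-LNA replicates 1 and 2. At least 5 of the 7 were seen in 88.1%, 84.4%, 84.9% and 73.2% of them. Among all other cells only 12, 2, 14 and 1 cells per library had 5 or more. Depth was not matched in these counts. The clusters led by Sprr1a and by Hbb-bt had median depths of 1281 and 1902 UMIs, against 5730 in the Wt1 Krt19 cluster. Co-detection of 5 or more of these genes was thus rare outside the cluster, as for a cluster built on them, and part of its own cells lacked it. When these and the related genes were left out of the clustering, the cluster held 2849 cells, of which 2845 were the same.

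Summed over the 7 genes, the level in the cluster was 16054, 17407, 11240 and 8391 CPM, against medians of 209, 58.0, 242 and 139 CPM over the other clusters of the same libraries. These medians cover the 5 to 7 other clusters of a library with at least 100 UMIs of the 7 genes. Zfpm2 made up 13.4% and 11.3% of the UMIs of the 7 genes in the siCont cluster cells and 31.0% and 26.1% in those labelled siFXR1-LNA, and its median share over the other clusters was 15.05% and 12.98% in siCont and 35.1% and 25.7% in siFXR1-LNA. For Zfpm2 the share outside was near that inside in each library. The share of Kcnd2 was 39.6%, 37.7%, 23.5% and 27.3% in the cluster. In the other clusters with at least 100 UMIs it was at most 29.0%, 26.6%, 16.2% and 22.2%, so it was lower there in each library. The mix in those clusters was thus not that of the Wt1 Krt19 cluster. In clusters with fewer UMIs the share reached 33.3% in mast cells of siCont replicate 1. It reached 30% in dendritic cells led by Fscn1 and Ccl22 in siFXR1-LNA replicate 2, each value on 30 UMIs. The summed level of the 7 genes was 49.7, 56.3, 67.8 and 28.9 times that of Krt19 in the cluster, and a median of 1.41, 0.953, 1.41 and 1.28 times in other clusters.

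Cdh10, the type II cadherin, departed from the other 7 genes. In Wt1 Krt19 cells it had 46, 7, 2 and 0 UMIs, or 8.04, 6.73, 0.225 and 0 CPM. The count of 0 in siFXR1-LNA replicate 2 allows up to 0.943 CPM, a limit for counting error only. In siCont replicate 1, 36 of the 46 UMIs lay in 3 of 847 cells, and 1 cell of siCont replicate 2 held all 7 UMIs of that library. Of the 11 cells with Cdh10 in siCont replicate 1, 10 carried at least 5 of the other 7 genes and 2 carried a T cell gene. Cdh10 in the cluster was thus a matter of a few cells.

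Most Cdh10 UMIs lay in a cluster of 1403 T cells led by Cd163l1, Trdv4 and Tcrg-V6, genes known from gamma-delta T cells. That cluster held 52.5%, 75.5%, 71.4% and 81.8% of the library's Cdh10 UMIs, at 109, 167, 33.4 and 81.6 CPM. A Cdh10 UMI was found in 15.8%, 26.7%, 5.14% and 15.9% of its cells, and in at most 0.198% of the cells of the other T cell cluster, whose median depth of 2038 to 2577 UMIs per cell was near the 1423 to 2357 of this one. Cd3e, a T cell receptor subunit, was seen in 10.0% of the cells of this cluster without Cdh10 in siFXR1-LNA replicate 1, against 55.3% to 68.6% in the other libraries. Magi1 was the only other of the 8 genes with its highest level outside Wt1 Krt19 cells in this cluster in 3 of 4 libraries, at 38.2, 43.4 and 47.6 CPM in siCont replicates 1 and 2 and siFXR1-LNA replicate 2. In the fourth library it stood at 60.2 CPM, below 71.3 CPM in mast cells, a value from 73 cells.

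Genes with the most similar pattern were taken by Pearson r of log2 (CPM + 1) over 42 sums of cluster and library, among 11180 genes. This r is a description, since the sums share libraries and the Wt1 Krt19 cluster sets most of the contrast. Zfpm2 and Dync1i1 were each other's nearest gene (r = 0.951). Kcnd2 was nearest to Ctnna2 (r = 0.929) and Ctnna2 to Magi1 (r = 0.930). Tenm3 was nearest to Pakap (r = 0.943) and Nfib (r = 0.935), and Dlg2 to Mpdz (r = 0.958) and Ptprd (r = 0.945). Cdh10 was nearest to Abi3bp (r = 0.968), itself a leading gene of the Cd163l1 T cells.

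The long span of these genes was shared by many others raised in the cluster. Over the other genes with at least 100 UMIs in the cluster, the median log2 ratio of the cluster to the other cells was 0.16 for genes spanning under 10 kb, 0.87 for 10 to 50 kb, 1.45 for 50 to 100 kb, 1.85 for 100 to 200 kb, 2.41 for 200 to 500 kb and 2.67 for over 500 kb. Of the 108 genes over 500 kb, 68.5% were more than 2 log2 units higher in the cluster, against 5.87% of the genes under 10 kb. Kcnd2, at 7.17, was far above the median of its own class. Whether intronic reads were counted is not given in the sources used here, and the part of such reads in this trend was not tested.

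**Figure D2:**
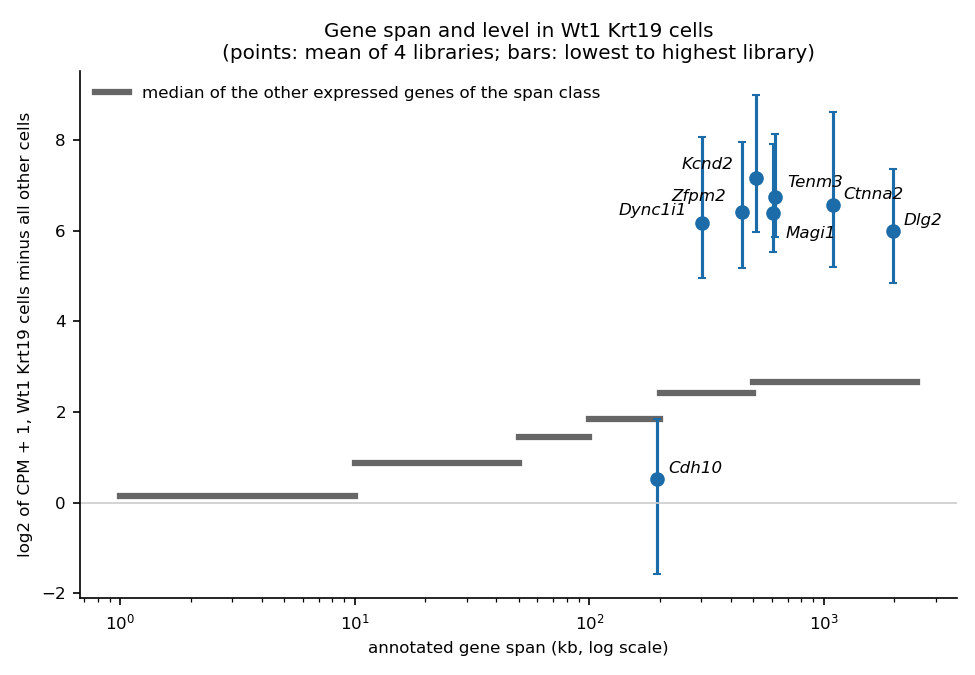
Difference of log2 (CPM + 1) between Wt1 Krt19 cells and all other cells against annotated gene span (kb, logarithmic axis), where points are means of the 4 libraries with vertical bars from the lowest to the highest library, and grey bars are medians of the other expressed genes per span class. The class medians run from 0.16 under 10 kb to 2.67 over 500 kb, and 7 of the 8 genes lie between 5.99 and 7.17.

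Genes over 200 kb other than these took 10.9%, 12.6%, 12.8% and 10.5% of the UMIs of Wt1 Krt19 cells in siCont replicates 1 and 2 and siFXR1-LNA replicates 1 and 2. The 8 genes took 1.61%, 1.74%, 1.12% and 0.839%. As a share of the UMIs of all long genes they made up 12.8% and 12.2% in siCont and 8.09% and 7.40% in siFXR1-LNA, so their part of the long-gene UMIs, and not the long-gene UMIs as a whole, was lower in both libraries labelled siFXR1-LNA. Of 48 neighbours, 3 on each side of each gene, 23 had at least 100 UMIs in the cluster and 12 of those were over 2 log2 units higher there, against 18.4% of all expressed genes. Adamts9, a neighbour of Magi1 that encodes a secreted metalloprotease, was the highest of them at 5.05.

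Other genes of the same families were described by a list of 47. Of these, 27 had at least 100 UMIs in the cluster and 18 were over 2 log2 units higher there, against 18.4% of all expressed genes. The share was 26.3% of expressed genes spanning 50 to 100 kb and 43.4% of those spanning 100 to 200 kb. The list's median span of 145 kb covers all 47 genes, and those with at least 100 UMIs span 14.8 to 1574 kb. Ctnna3, the alpha-T-catenin, was at 6.21 with a pooled level of 300 CPM, and Magi2 was at 5.62 with 149 CPM. Adgrl2, a latrophilin of the family that binds teneurins, was at 4.37 with 305 CPM. Gata4, a factor that Zfpm2 binds, was at 3.86 with 296 CPM, and Gata6 was at 2.86 with 232 CPM. Other listed genes were not raised to this degree. The second intermediate chain, Dync1i2, was at 1.01 and beta-catenin, Ctnnb1, at 0.69. Of the subunits of Kv4 channels, Kcnip2 was at 2.67, Dpp6 at 1.28, Kcnip4 at 0.06, Dpp10 at -0.31, Kcnip1 at -1.08 and Kcnip3 at -1.46, the last 5 with 1 to 41 UMIs in the cluster. Genes of the same families were thus raised in part.

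Long genes of neurons were also raised in part. Their list shares Ctnnd2, Dpp10 and Kcnip4 with the families above, and Ctnnd2, at 2.78, counts as raised in both lists. Of a list of 30, 10 had at least 100 UMIs and 9 of those were over 2 log2 units higher in the cluster. The list's median span was 1120 kb, and 68.5% of the other expressed genes over 500 kb were as much higher. Ptprd, a receptor phosphatase of synapses, stood at 1273, 1230, 1103 and 903 CPM. Sox5, a transcription factor, stood at 1185, 1855, 1090 and 987 CPM. Defining markers of neurons were low in the same cells. Of 8 such markers, only Tubb3 reached 100 UMIs, Gap43 and Nefl had 0, and their summed pooled level was 21.8 CPM. Their median span was 80.6 kb, and only Rbfox3 and Syt1, at 422 and 513 kb, spanned over 200 kb. Most of them were thus not matched in span to the long genes. Of 5 markers of Schwann cells and glia, the summed level was 3.77 CPM, with Sox10 at 1 UMI. None of these 13 markers was over 2 log2 units higher in the cluster. Of 7 fibroblast markers, 4 were, with Col1a2 at 4.91, Col1a1 at 4.41, Col3a1 at 3.76 and Pdgfra at 3.10, all above Krt19 at 1.40. Dcn was at 1.62, and Lum and Dpt had 16 and 19 UMIs. The 7 markers summed to a pooled 673 CPM, of which Dcn took 496. In siFXR1-LNA replicate 1 they summed to 566 CPM in the cluster and 772 CPM in all other cells, while in the other libraries the cluster was higher. Of 6 ovarian markers, Inha alone was over 2 log2 units higher, at 2.05. The cells that carried these genes thus had collagen genes raised as well, but not every fibroblast marker. Neuronal and glial markers were not raised to this degree.

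Between the groups, 3 of the 8 genes passed the test in Wt1 Krt19 cells and each had its lower level in the siFXR1-LNA libraries. Kcnd2, Ctnna2 and Cdh10 were the 3. Cdh10, at 46, 7, 2 and 0 UMIs, passed the filter on low counts through the siCont libraries alone, so its call adds no support. Zfpm2 was the single gene with a higher fitted value. At an unadjusted p under 0.05, 4 of the 8 genes passed in edgeR, against 23.7% of all genes tested. After adjustment 7.87% of the 13117 genes tested were called, 4.89% as lower, and the median log2 difference was -0.77 for the 8 genes and 0.002 for all genes tested. The fit was edgeR's quasi-likelihood test on UMIs summed per library over the cluster, with p-values adjusted over all genes by the Benjamini-Hochberg method at a threshold of 0.05. A lower CPM is a lower share of the UMIs of these cells, and fewer molecules of the gene cannot be told apart from more of other genes.

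Kcnd2, the Kv4 channel, stood at 6354 and 6558 CPM in the siCont libraries and at 2645 and 2287 CPM in those labelled siFXR1-LNA. The groups did not overlap, as was so in the same direction for 26.8% of all genes tested. The log2 difference was -1.36 (SE 0.32, n = 2 per group, edgeR adjusted p = 0.0295). The call was lost without siCont replicate 1 (adjusted p = 0.13 in edgeR), without siCont replicate 2 (0.11) and without siFXR1-LNA replicate 2 (0.051). It was also lost when barcodes over 4800 genes with the markers were added (log2 difference -0.95, adjusted p = 0.57).

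Ctnna2, the neuronal alpha-catenin, stood at 3124 and 3363 CPM in siCont and at 987 and 1294 CPM in siFXR1-LNA. Its groups were also apart. The log2 difference was -1.50 (SE 0.30, n = 2 per group, edgeR adjusted p = 0.0155), and the call held without any 1 library, at 0.0483 without siCont replicate 1 and 0.0495 without siCont replicate 2. It was lost in cells taken by marker UMIs, with a larger difference (log2 difference -1.76, edgeR adjusted p = 0.22). With the barcodes over 4800 genes added it was lost (log2 difference -1.22, edgeR adjusted p = 0.38).

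Cdh10 was called lower (edgeR adjusted p = 0.00503) on 53 UMIs in the siCont libraries and 2 in the siFXR1-LNA libraries. The ratio of siCont to siFXR1-LNA was 47.4, with a 95% counting interval of 12.5 to 401 that takes each UMI as independent. Since 36 of the UMIs lay in 3 cells, the interval is too narrow. Without siCont replicate 1 the gene fell below the filter on low counts and was not tested.

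Dync1i1, the dynein intermediate chain, stood at 1115 and 1705 CPM in siCont and at 789 and 557 CPM in siFXR1-LNA. The groups were apart, but the difference did not pass (log2 difference -1.04, SE 0.33, n = 2 per group, edgeR adjusted p = 0.0887). It passed without siFXR1-LNA replicate 1 (adjusted p = 0.0067 in edgeR) and in DESeq2 (0.021).

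Magi1, a junction scaffold, stood at 1141 and 1386 CPM in siCont and at 1055 and 696 CPM in siFXR1-LNA (log2 difference -0.50, SE 0.32, edgeR adjusted p = 0.385). Its groups were apart by less than the distance between the siFXR1-LNA libraries. Dlg2 stood at 1373 and 1472 CPM in siCont and at 1372 and 725 CPM in siFXR1-LNA (log2 difference -0.40, SE 0.35, edgeR adjusted p = 0.546). Replicate 1 of both groups was nearly equal, and without siFXR1-LNA replicate 2 the fitted difference turned to 0.04. Other scaffolds of the Magi family went both ways, with Magi2 called lower and Magi3 called higher, as given below.

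Tenm3, the teneurin, stood at 801 and 947 CPM in siCont and at 908 and 645 CPM in siFXR1-LNA (log2 difference -0.14, SE 0.30, edgeR adjusted p = 0.832), and its groups overlapped. Zfpm2, the GATA cofactor, stood at 2145 and 1975 CPM in siCont and at 3484 and 2187 CPM in siFXR1-LNA (log2 difference 0.50, SE 0.34, edgeR adjusted p = 0.409). Its groups were apart in the higher direction, as were those of 26.1% of all genes tested. The 8 genes thus did not move as 1 block between the groups.

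**Figure D3:**
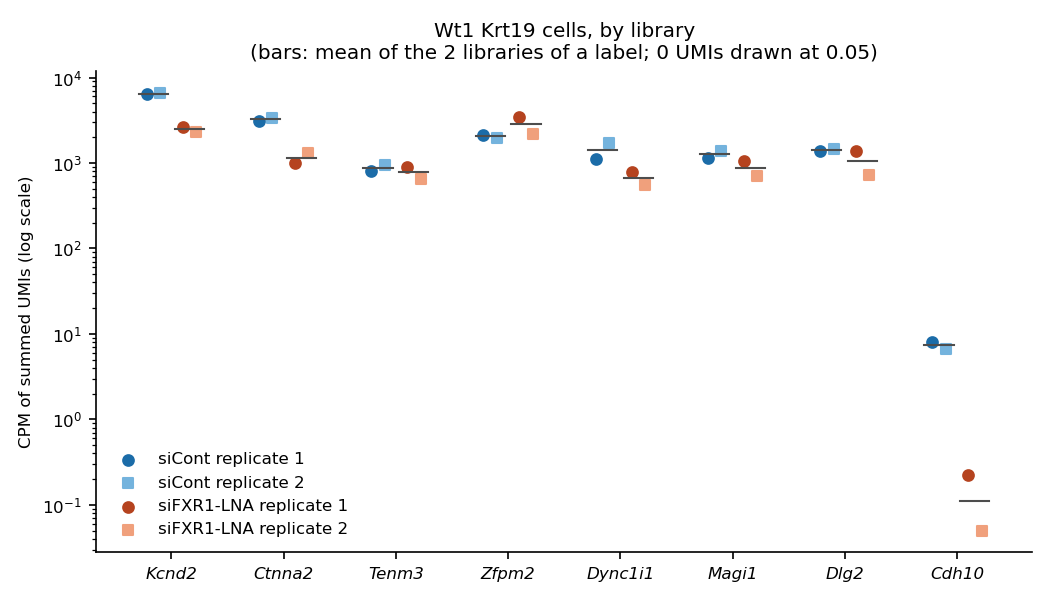
Level of each gene in Wt1 Krt19 cells (CPM, logarithmic axis, 0 UMIs drawn at 0.05) with 1 point per library, and bars at the mean of the 2 libraries of a label. Kcnd2 stands at 6354 and 6558 CPM in siCont and at 2645 and 2287 CPM in siFXR1-LNA, and Zfpm2 lies higher in both libraries labelled siFXR1-LNA.

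Among the 47 related genes 30 were tested, of which 3 were called lower and 1 higher, where 7.87% of all genes tested were called and 4.89% were called lower, with a median log2 difference of -0.28. Kcnip2, a subunit of Kv4 channels, was lower at 19.8 and 29.8 CPM in siCont against 3.37 and 7.86 CPM in siFXR1-LNA (log2 difference -2.17, edgeR adjusted p = 0.0159). Adgrl1, a latrophilin, was lower with a log2 difference of -1.31 (edgeR adjusted p = 0.0166) and Magi2 with -1.39 (edgeR adjusted p = 0.0197). Magi3 was higher, at 235 and 195 CPM in siCont against 700 and 415 CPM in siFXR1-LNA (log2 difference 1.41, edgeR adjusted p = 0.0242). Among the 30 long neuronal genes 16 were tested, and Il1rapl1, Auts2 and Erbb4 were lower while Pcdh9, a protocadherin, was higher at 87.4 and 113 CPM against 496 and 187 CPM (log2 difference 1.84, edgeR adjusted p = 0.0293). Their median was -0.65. That is 4 called of 16, beside the same 7.87% of all genes. Calls went both ways in each list.

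Several other values moved with the groups in the same cells, and their part in the differences was not tested. The summed CPM of all 5 erythrocyte markers, all of them present, was 67226 and 87968 in siCont and 27501 and 16085 in siFXR1-LNA. All 7 B cell markers were present and summed to 152 and 135 CPM against 33.7 and 33.0 CPM. Of the 6 granulocyte markers, 5 or 6 were present per library, and they summed to 98.6 and 159 CPM against 1268 and 865 CPM. The 9 Wt1 Krt19 markers summed to 2533 and 2531 CPM in siCont and to 1847 and 1820 CPM in siFXR1-LNA. Wt1 itself differed by -0.07 and Krt19 by -0.47 on the log2 scale, without a call, while Upk3b, a uroplakin known from mesothelium, was called lower (log2 difference -1.37, edgeR adjusted p = 0.00987). Malat1, a nuclear RNA, differed by -0.38. Macrophage markers overlapped between the groups, at 2085 and 603 CPM against 1219 and 1592 CPM.

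The median mitochondrial share of the Wt1 Krt19 cells was 1.27% and 1.20% in siCont and 2.68% and 4.01% in siFXR1-LNA. It moved with the level of these genes within each library. In cells under 0.5% mitochondrial UMIs, the summed level of the 7 genes was 26415, 27813, 15031 and 15494 CPM. In cells of 0.5 to 2% it was 6973, 11639, 7857 and 3663 CPM, the lowest of the 5 bins in all libraries but siCont replicate 2, where that bin held 18 cells. In cells of 5 to 10% it was again 15751, 14453, 11038 and 8421 CPM. The level was thus highest at the lowest mitochondrial share in every library, and it did not fall steadily with the share.

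Krt19 ran the other way. It stood at 160, 162, 128 and 158 CPM in cells under 0.5% and at 596, 838, 253 and 622 CPM in cells of 0.5 to 2%. Malat1 stood at 42856, 43338, 28998 and 37918 CPM under 0.5% and at 11188, 19803, 15455 and 8738 CPM from 0.5 to 2%, as the 7 genes did. Cells under 0.5% made up 41.8% and 41.8% of the cluster in siCont and 35.0% and 18.9% in siFXR1-LNA.

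**Figure D4:**
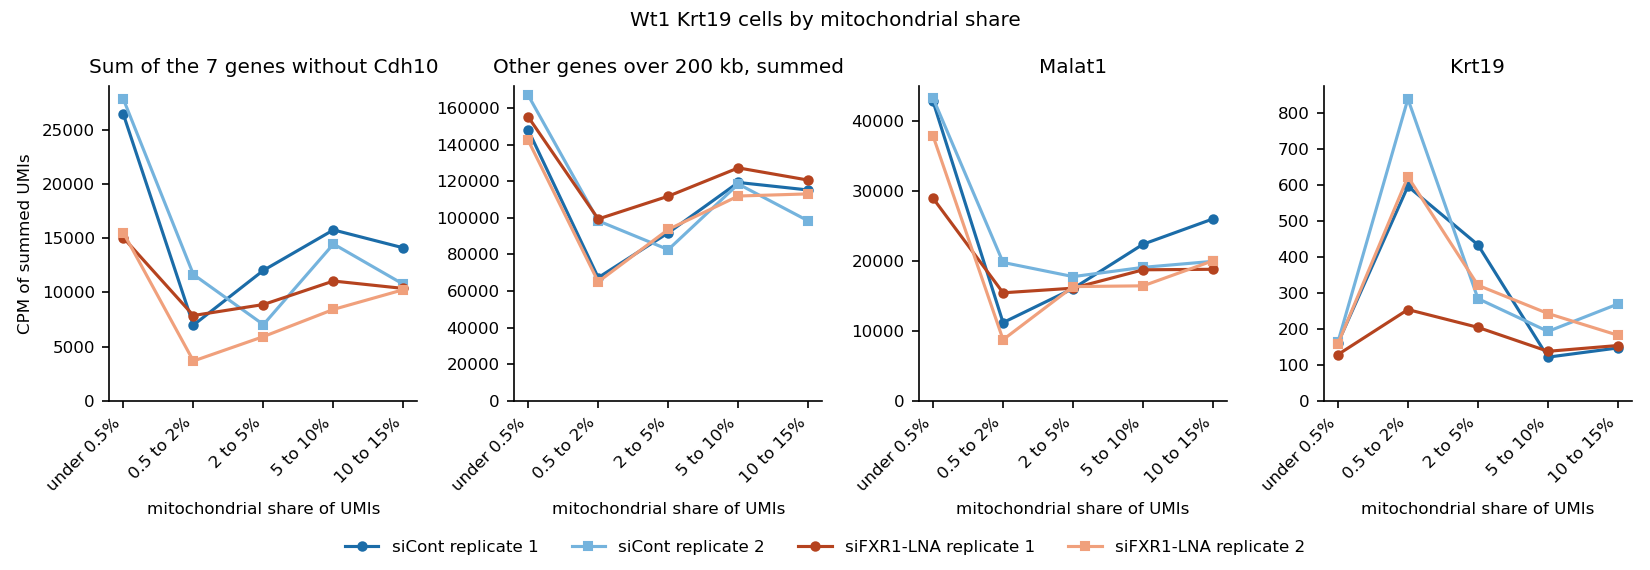
Levels in Wt1 Krt19 cells (CPM, linear axes from 0) by bin of mitochondrial share of UMIs, 1 line per library, for the sum of the 7 genes, the sum of other genes over 200 kb, Malat1 and Krt19. The 7 genes stand between 15031 and 27813 CPM under 0.5% and between 3663 and 11639 CPM from 0.5 to 2%, where Krt19 is higher than under 0.5% in all 4 libraries.

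Over the cells of a library, the share of UMIs from the 7 genes had a Spearman rho with the mitochondrial share of -0.38, -0.49, -0.26 and -0.03, in the order siCont replicates 1 and 2, siFXR1-LNA replicates 1 and 2. With the UMI depth of the cell rho was -0.22, -0.15, 0.14 and -0.06. With the Malat1 share it was 0.61, 0.72, 0.59 and 0.70. These are descriptions over cells of 1 library, and all shares have the depth of the cell as their divisor. Other genes over 200 kb behaved alike, with a mean rho over the libraries of -0.11 with depth, -0.30 with mitochondrial share and 0.67 with Malat1, whereas Krt19 had 0.24, 0.06 and -0.24. Among the 21 pairs of the 7 genes, the median rho was 0.38, 0.42, 0.22 and 0.29 per library, highest for Kcnd2 with Dync1i1 at a mean of 0.45.

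By depth, the 7 genes summed to 21125, 22317, 11951 and 9383 CPM in cells of 3000 to 6000 UMIs and to 10090, 15010, 8977 and 7174 CPM in cells over 10000 UMIs. Krt19 was higher in the deeper cells, at 550, 383, 251 and 391 CPM over 10000 UMIs against 186, 218, 139 and 133 CPM from 3000 to 6000. Barcodes over 4800 genes that carried Wt1, a second marker and no Ptprc numbered 81, 68, 70 and 187, with median depths of 20621 to 29306 UMIs. In them the 7 genes summed to 7131, 4974, 8163 and 4211 CPM, below the cluster in every library. Kcnd2 stood there at 2344 and 1706 CPM in siCont and at 2329 and 1467 CPM in siFXR1-LNA, so the groups overlapped. These barcodes may hold 2 cells each, and no doublet caller was run.

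The comparison of the groups was repeated within bins of mitochondrial share and of depth. Kcnd2 was lower in both siFXR1-LNA libraries than in both siCont libraries in 5 of 5 mitochondrial bins, as were 1.94% of the 13117 genes tested, with ratios of group means from 0.353 to 0.630. It was lower in 4 of 4 depth bins, as were 2.49% of the genes. Genes with few UMIs stand at 0 in some bins, which holds these shares down, and the bins reuse the same 4 libraries. Under 0.5% Kcnd2 stood at 11239 and 10767 CPM in siCont against 3541 and 4223 CPM in siFXR1-LNA. Ctnna2 and Dync1i1 were each lower without overlap in 4 of 5 mitochondrial bins, where 6.47% of genes were so in at least 4. They were so in 3 and 4 of the 4 depth bins, where 9.22% of genes were lower in at least 3. Magi1 was lower in 2 mitochondrial and 3 depth bins, Dlg2 in 1 and 2, and Tenm3 in 1 and 1, while Tenm3 was higher in 1 mitochondrial bin. Zfpm2 was higher without overlap in 1 mitochondrial and 2 depth bins and lower in none. For counts of 1 or 2 bins no share over all genes was taken, so they are not read as differences. Upk3b, which is not one of the 8 genes, was lower in 5 of 5 and 4 of 4. The siCont replicate 2 bins at 10 to 15% and under 3000 UMIs held 6 and 12 cells.

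**Figure D5:**
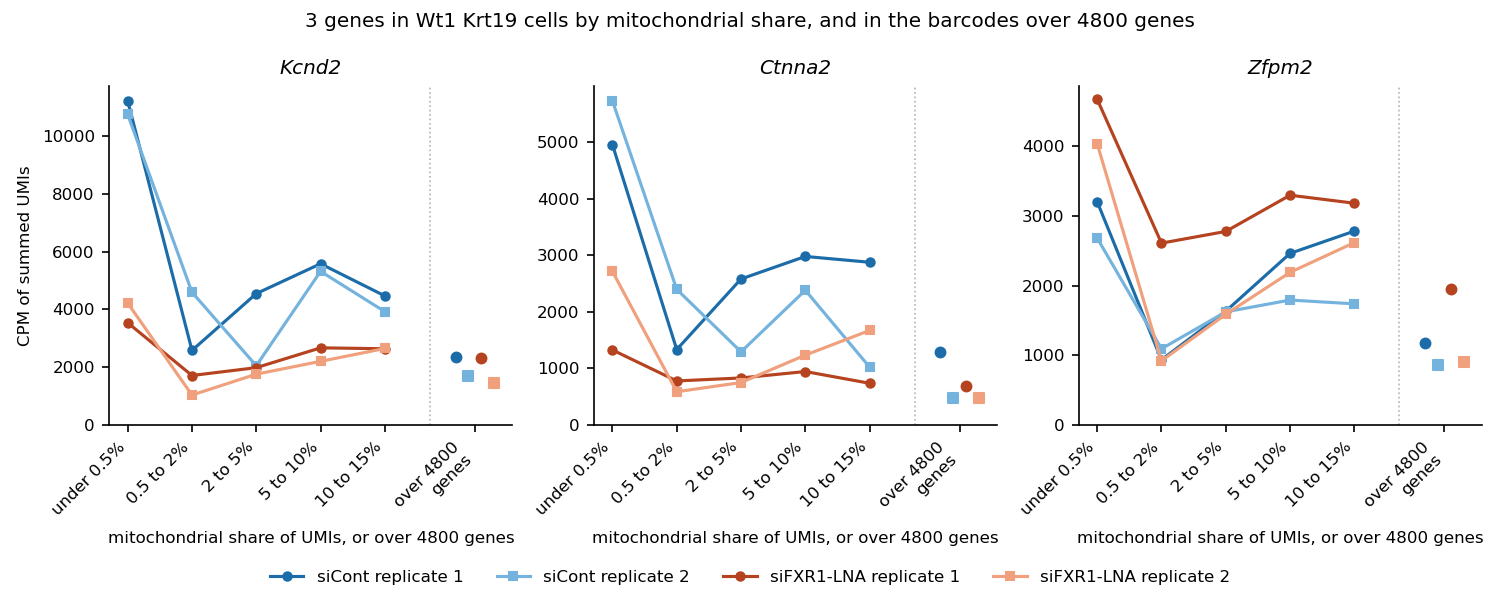
Level of Kcnd2, Ctnna2 and Zfpm2 (CPM, linear axes from 0) in Wt1 Krt19 cells by bin of mitochondrial share, 1 line per library, with the barcodes over 4800 genes as separate points at the right. Kcnd2 lies lower in both libraries labelled siFXR1-LNA in 5 of 5 bins, and in the barcodes over 4800 genes the groups overlap.

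Cycling cells, with at least 2 UMIs over 10 cycle genes and at least 2000 UMIs in all, numbered 106, 8, 26 and 5 in the cluster. Kcnd2 stood at 6478 and 5220 CPM in cycling siCont cells and at 2877 and 2054 CPM in cycling cells of siFXR1-LNA, against 6323, 6663, 2653 and 2302 CPM in the other cells of that depth. Ctnna2 stood at 3737, 1371, 943 and 788 CPM in cycling cells. The lower Kcnd2 level of the libraries labelled siFXR1-LNA was thus seen in cycling and other cells alike, with few cycling cells in 3 of the libraries.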

How the data were processed

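The 4 libraries were deposited by the authors as raw UMI counts for every gene and barcode, not normalized. They come from Cell Ranger (version 7.0.0 in the submitters' processing notes, another version in the methods), with mm10 as the build. Counting of intronic reads is not given in the sources used here, and the kit version differs between sources. The methods leave out 1 replicate of siFXR1-LNA for its low read and cell numbers, without saying which. Replicate 2 holds fewer UMIs (78179267 against 113606837) and barcodes (17309 against 54665). Both were used, and values without each are given. The genes and lists were chosen with earlier results of these data known.

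Barcodes were kept from 100 genes up to 4800 genes and up to 15% mitochondrial UMIs, the limits in the methods. They were clustered in Seurat 5.3.0 (R 4.3.3, 2000 variable genes, 50 components, Louvain, resolution 0.1), all libraries together without integration. The paper reports far fewer cells after its quality control than the 132644 kept here, so the set of cells is not the study's. The other cells here include 46576 barcodes of the unnamed cluster led by Sprr1a and 38037 named as erythrocytes. No doublet caller was run. A cluster was named from 3 or more listed markers raised 2-fold and seen in 5% of its cells. This naming rule, and its demand that Wt1 itself be raised for Wt1 Krt19 cells, was set after the clusters were seen. UMIs were summed per library and cluster, shown as CPM, and the summed counts were tested with edgeR 4.0.16 (TMM, filterByExpr, quasi-likelihood, Benjamini-Hochberg, threshold 0.05). Counts over cells have exact binomial or Poisson 95% intervals, and a count of 0 a limit of 3 counts. Both cover counting error only. The text names all 8 genes, listed related genes where their values matter, and the 2 genes most like each.

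Spans are from GENCODE vM21, which held 99.6% of the identifiers, and promoters from RefSeq. On simulated counts for the 13117 genes of this comparison, edgeR called 25.3% of genes changed 2-fold and 83.0% of those changed 4-fold, with 36 false calls among 37908 tests of unchanged genes. Alternatives were DESeq2 1.42.0, other filters on genes, cells and mitochondrial share, thinning, resolution 0.3, clustering without these genes, cells taken by marker UMIs, a replicate block and leaving out each library. Added after seeing the data were leaving out Ptprc cells, adding barcodes over 4800 genes and keeping only cells of at least 1% mitochondrial share. Python 3.11.15, numpy 2.4.6, pandas 2.3.3, scipy 1.17.1 and matplotlib 3.10.9 were used.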

Additional observations from a re-analysis of the deposited data

How the results depend on the processing

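In Wt1 Krt19 cells, 1032 genes were called between the groups. The number was 1950 with no filter beyond 1 count, 646 at a mitochondrial share of at most 5%, 191 in cells taken by marker UMIs and 39 with barcodes over 4800 genes added, and leaving out 1 library gave 651 (without siCont replicate 1) to 2056 (without siFXR1-LNA replicate 2). Of the 8 genes 3 were called, but 0 in cells by marker UMIs (at an unadjusted edgeR p under 0.05, 4 of the 7 tested), 1 with the added barcodes and 1 to 4 without 1 library. Replicate numbers did not pair the libraries (correlation of deviations 0.0067 over 13117 genes), and the replicate block gave 1634 calls, of which 2 of the 8 genes, with Kcnd2 lost at a like difference (log2 difference -1.37, edgeR adjusted p = 0.12). Kcnd2 was also lost at a mitochondrial share of at most 5% (-1.47, 0.073) and by marker UMIs (-1.44, 0.43). In both settings its difference was as large as in all cells (-1.36). It was lost as well at a share of at least 1% (-0.79, edgeR adjusted p = 0.056), where the difference was smaller than in all cells. Ctnna2 was lost by marker UMIs (-1.76, 0.22). Dync1i1 passed with no filter (0.016) and after thinning (0.018). Cdh10 was not tested after thinning or by marker UMIs. Tenm3 turned to 0.0695 with the added barcodes and 0.36 at a share of at least 1% (-0.48 to 0.14 without 1 library), and Dlg2 to 0.02 at a share of at least 1% (-1.01 to 0.0354 without 1 library). The mean log2 level ratio of the 7 genes was 6.69, 4.25 by marker UMIs and 6.08 to 7.13 without 1 library. The mean rho with depth was -0.07, but -0.25 by marker UMIs, -0.37 by marker UMIs without limits and -0.26 with the added barcodes (-0.15 to -0.02 without 1 library). That with mitochondrial share was -0.29 (-0.38 to -0.23 without 1 library) and reversed to 0.18 by marker UMIs and 0.40 without limits. The causes were not tested. With 2 pools per group, most 2-fold changes were not detectable.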
